A study of Mus musculus with 2 samples.

Results

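A set of 10 genes of the Notch pathway was followed in total RNA of the mouse gastrocnemius, the large calf muscle: the receptor genes Notch1, Notch2 and Notch3, the ligand genes Jag1, Jag2, Dll1 and Dll4, and the effector genes Hey1, Heyl and Hes1. They were taken by name and are 10 of 55536 named genes in the tables. The RNA came from female B6CASTF1/J mice, the F1 offspring of C57BL/6J crossed with CAST/EiJ, at an age of 10 days. The labels name no treatment, and both libraries, biological replicates 1 and 2 of 1 group, were made from 300 ng of RNA with ERCC spike-ins, synthetic RNAs added in known amounts. Whole tissue was used, so no value belongs to 1 cell type, and fewer cells of a type cannot be told apart from less RNA per cell. The labels list the libraries as separate biosamples, numbered apart, but with 1 shared donor identifier, and whether each stands for a single animal is not stated. The reference was that of C57BL/6J and the tables give no value per parental allele. With 1 group there is no test of a condition, and values are given per library or as mean ± SD with n = 2, where the spread may be technical.

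Notch receptors are membrane proteins that are cut when they bind a ligand of the Jagged or Delta-like family on a neighbouring cell. The gamma-secretase complex then releases the intracellular part, which enters the nucleus, joins the DNA-binding protein RBPJ and a Mastermind protein, and turns on repressor genes of the HES and HEY families. In skeletal muscle the pathway is known for keeping satellite cells, the muscle stem cells, undifferentiated. In vessels, Dll4 and Notch1 act in endothelial cells, and Jag1 and Notch3 in the contact between endothelium and the mural cells around it.

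In mm10 with the GENCODE M21 annotation, 3 of the 10 genes lie on chromosome 2: Notch1 (ENSMUSG00000026923) at 26457903 to 26516663, Jag1 (ENSMUSG00000027276) at 137081456 to 137116644 and Dll4 (ENSMUSG00000027314) at 119325784 to 119335962. Chromosome 3 holds Notch2 (ENSMUSG00000027878) at 98013527 to 98150361 and Hey1 (ENSMUSG00000040289) at 8663359 to 8667256. Chromosome 17 holds Notch3 (ENSMUSG00000038146) at 32120820 to 32166852 and Dll1 (ENSMUSG00000014773) at 15367354 to 15376872. Heyl (ENSMUSG00000032744) lies on chromosome 4 at 123233556 to 123249875, Jag2 (ENSMUSG00000002799) on chromosome 12 at 112907819 to 112929776 and Hes1 (ENSMUSG00000022528) on chromosome 16 at 30064384 to 30067796. Annotated genes overlap 6 of the 10, 9 in all, and none of the 9 exceeded 0.9 TPM in either library, where TPM is the length-corrected abundance of a transcript or gene scaled to a fixed sum per library.

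In all 10 genes 1 coding transcript held the most TPM, and 8 of the genes also have transcripts of the retained intron class, which carry intron sequence next to exons. A boundary carried by such a transcript is shown for 6 genes, since the summed share of these forms differed between the libraries in all 8 genes. A printed form need not follow that sum. Jag2-203 held 3.41% of the gene's TPM in replicate 1 and 3.84% in replicate 2, and Dll1-204 was at 0 by kallisto-format TPM in both libraries. For each gene the sequence comes from its retained intron transcript with the highest share that holds at least 30 exon bases and 30 intron bases at the start of an intron in the coding region of the leading transcript. Lower case marks the exon and capitals the first 30 bases of the intron, 5′ to 3′ in the direction of the gene, from the GENCODE M21 transcript sequences.
Notch1-205, intron 2, chr2:26501851-26501910, minus strand: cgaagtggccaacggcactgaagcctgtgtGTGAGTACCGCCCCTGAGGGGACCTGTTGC
Notch2-202, intron 8, chr3:98100359-98100418, plus strand: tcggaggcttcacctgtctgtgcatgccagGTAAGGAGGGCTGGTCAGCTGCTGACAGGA
Jag1-202, intron 23, chr2:137084892-137084951, minus strand: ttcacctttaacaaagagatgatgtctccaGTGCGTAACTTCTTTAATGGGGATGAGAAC
Jag2-203, intron 18, chr12:112913135-112913194, minus strand: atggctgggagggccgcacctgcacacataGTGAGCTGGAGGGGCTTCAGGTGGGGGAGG
Dll1-204, intron 10, chr17:15368104-15368163, minus strand: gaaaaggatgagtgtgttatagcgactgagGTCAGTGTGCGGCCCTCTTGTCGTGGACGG
Hey1-204, intron 4, chr3:8665915-8665974, minus strand: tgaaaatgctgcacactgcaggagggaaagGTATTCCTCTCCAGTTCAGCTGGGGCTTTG
All 6 introns begin with GT, the usual start of an intron. A read that crosses from the lower case into the capitals would hold intron sequence, whether from the named transcript or from another unspliced molecule. Such reads were not examined.

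Some facts of the libraries bear on all values. Expected counts summed to 35925081 in replicate 1 and 39969380 in replicate 2, and each Notch pathway gene had between 300.0 and 4664 of them per library. All 5 muscle fibre markers were detected, meaning TPM 1 or more in both libraries, with a summed TPM of 62507 and 73205. Bone and cartilage markers differed between the libraries, with 8 of 8 lower in replicate 2, a summed TPM of 315 against 14.7, and Ibsp and Bglap at 0 counts in replicate 2. The cartilage markers among them differed far less, with Col2a1 at a TPM of 14.7 and 11.5 and Acan at 2.24 and 1.54. All 6 granulocyte markers were also lower in replicate 2, at a sum of 52.6 against 0.74, with Ngp and Elane at 0, and so were all 3 adipocyte markers, at 21.7 against 7.99. The part of these cells in any difference between the libraries reported here was not tested.

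All 10 genes were detected, against 52.3% of nuclear protein coding genes. By mean TPM they stood above 31.7% to 73.4% of the 12562 detected genes, in the middle of the range for this tissue. Summed, the 3 receptors reached a TPM of 47.9 ± 9.53, the 4 ligands 32.8 ± 6.34 and the 3 effectors 26.1 ± 3.03 (SD, n = 2).

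Among the receptors, Notch3, the form known from mural cells, was the highest at a TPM of 21.2 in replicate 1 and 18.1 in replicate 2. Notch2 stood at 18.6 and 12.1. Notch1 stood at 14.8 and 10.95. All 3 were lower in replicate 2, and the order Notch3, Notch2, Notch1 was the same in both libraries. Notch3 held 41.4% ± 3.69 of receptor TPM, Notch2 31.8% ± 3.31 and Notch1 26.9% ± 0.380 (SD, n = 2). Within a library, the log2 ratio of Notch3 over Notch1 was 0.51 and 0.73, and that of Notch3 over Notch2 was 0.19 and 0.58, each with the same sign in both libraries and a mean above its SD. By expected counts Notch3 over Notch2 was 0.05 and 0.39, with a mean under its SD. Notch2 over Notch1, at 0.33 and 0.15, changed sign between libraries by kallisto-format TPM, at 0.15 and -0.01, and by posterior mean TPM, at 0.11 and -0.10.

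Jag2 led the ligands by gene-level TPM, at 17.7 in replicate 1 and 12.0 in replicate 2. Jag1, the Jagged ligand known from vessels, stood at 7.38 and 5.75. Dll1, the Delta-like ligand known from myogenic cells, stood at 6.52 and 5.10. These 3 were lower in replicate 2. Dll4, the Delta-like ligand known from arterial endothelium, stood at 5.71 and 5.49, a ratio of replicate 2 over replicate 1 of 0.962. Jag2 held 44.9% ± 3.59 of ligand TPM, against 20.0% ± 0.354 for Jag1, 17.7% ± 0.362 for Dll1 and 17.3% ± 2.87 for Dll4 (SD, n = 2). Dll1 was above Dll4 in replicate 1 and below it in replicate 2, so by RSEM-format TPM their order was not the same in both libraries. The log2 ratio of Dll1 over Dll4 was 0.18 and 0.29 by kallisto-format TPM and -0.20 and -0.36 by expected counts, which are not per length, so its sign depends on the measure.

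Of the effectors, which encode basic helix-loop-helix repressors, Heyl stood at a TPM of 12.1 in replicate 1 and 10.2 in replicate 2. Hes1, the general Notch target of many tissues, stood at 10.9 and 8.92. Hey1 was the lowest of the 10 genes, at 5.17 and 4.79. Heyl was above Hes1 and Hes1 above Hey1 in both libraries. The effector shares differed little between libraries, at 42.8% ± 0.234 for Heyl, 38.0% ± 0.963 for Hes1 and 19.2% ± 1.20 for Hey1 (SD, n = 2). The log2 ratio of Heyl over Hey1 was 1.16 ± 0.10, and that of Hes1 over Hey1 was 0.99 ± 0.13.

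The full order by mean TPM was Notch3, Notch2, Jag2, Notch1, Heyl, Hes1, Jag1, Dll1, Dll4 and Hey1. Of the 9 neighbouring pairs in that order, 7 had a difference of the same sign in both libraries with a mean above its SD. The 2 exceptions were Notch2 and Jag2, apart by 0.92 and 0.09 TPM, and Dll1 and Dll4. In the kallisto-format tables Jag2 was above Notch2 in both libraries, and Jag1 and Dll1 changed places between them. Only Dll1 and Dll4 held another place in replicate 2 than in replicate 1 by the RSEM-format tables. Kallisto-format TPM was above RSEM-format TPM in all 10 genes, by 0.24 for Notch2 to 0.73 for Dll1 on the log2 scale, beside a median of 0.54 over the 12242 detected genes with a kallisto-format value above 0.

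**Figure D1:**
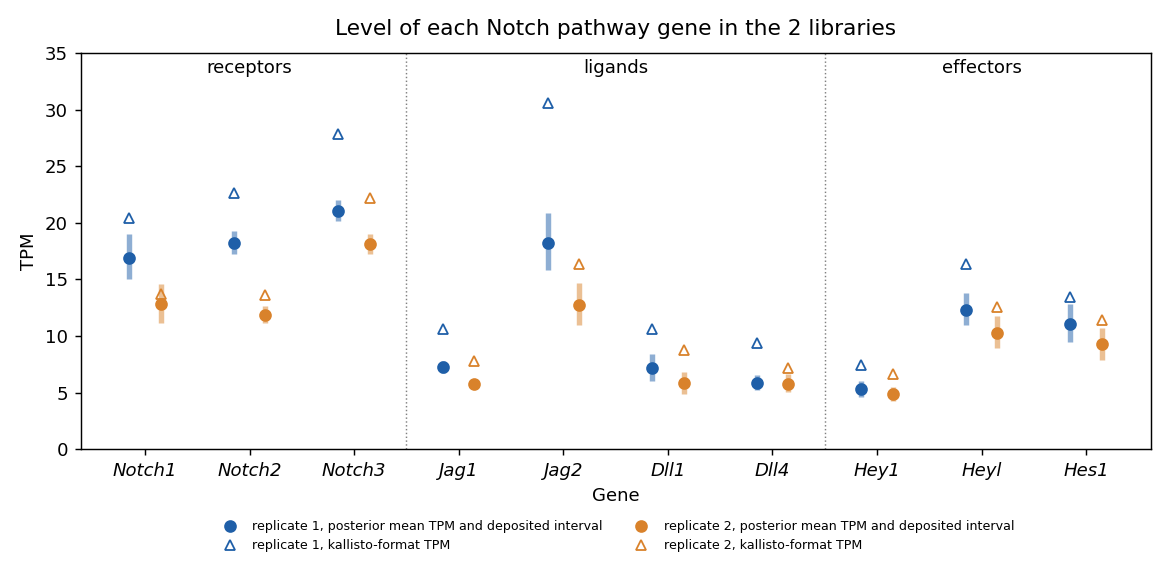
TPM (vertical axis) of the 10 genes, grouped as receptors, ligands and effectors, in replicate 1 and replicate 2. Circles are posterior mean TPM of the RSEM-format tables, bars the intervals deposited with them and open triangles kallisto-format TPM. The bars of the 2 libraries are apart for Notch1, Notch2, Notch3, Jag1 and Jag2 and overlap for the other 5 genes, and the triangles lie highest for Jag2 in replicate 1, at 30.6.

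The deposited gene tables give an interval of TPM for each library, whose level is not stated in them and which covers counting and the division of reads among transcripts, not the spread between samples. For 5 genes the intervals of the 2 libraries were apart, all lower in replicate 2. Notch2 ran from 17.3 to 19.2 in replicate 1 and from 11.2 to 12.6 in replicate 2, and Notch3 from 20.2 to 22.0 and from 17.2 to 19.0. Jag1 ran from 6.70 to 7.82 and from 5.30 to 6.18. Over all detected genes, 24.5% had intervals that were apart and lower in replicate 2, and 4.54% apart and higher. For Notch1 the TPM of 14.8 lay below its own interval, 15.01 to 19.1, in replicate 1, and 10.95 lay below 11.2 to 14.6 in replicate 2. The interval surrounds the posterior mean TPM, 16.9 and 12.8, in which Notch1 transcripts at 0 expected counts also take a share: of its 11 transcripts, 6 had 0 expected counts in both libraries.

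By TPM, 10 of 10 genes were lower in replicate 2, beside 75.6% of all detected genes. TPM is a share of each library, and with TMM scaling, which centres the bulk of genes, 5 of the 10 were lower and 5 higher. Their log2 ratios of replicate 2 over replicate 1 ran from -0.32 to 0.24 with a median of 0.01, beside a median of 0.08 and quartiles of -0.09 and 0.25 over the 11759 genes whose mean count reached 100, of which 37.3% were below 0. Of the 10 genes, 7 lay inside those quartiles. Library totals shifted all ratios by -0.24 and spike-in totals by -0.39, and with either all 10 genes were below 0, down to -0.56 and -0.71, beside 73.9% and 90.2% of the 11759 genes. None of the 10 passed 2-fold in any of these settings, whereas with TMM 0.808% of all genes were lower and 0.213% higher by that much.

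The genes at both ends of that range had these counts. Notch2 had 4519 expected counts in replicate 1 and 3398 in replicate 2, a log2 ratio of -0.32. Jag2 had 1574 and 1237, at -0.26, and Notch1 had 3431 and 2969, at -0.12. These 3 had the lowest ratios also with DESeq2 size factors, library totals, spike-in totals and kallisto-format counts. At the other end, Hey1 had 300.0 and 332 counts, at 0.24, and Dll4 had 587 and 628, at 0.19. Hey1 and Dll4 were the 2 highest under those 4 settings as well, but their sign turned with library totals, to -0.01 and -0.06. The remaining 5 genes lay between -0.04 and 0.08 with TMM. Among them were Notch3, at 0.03, and Jag1, at -0.02, so their separate intervals were a difference in TPM and not with TMM scaling.

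**Figure D2:**
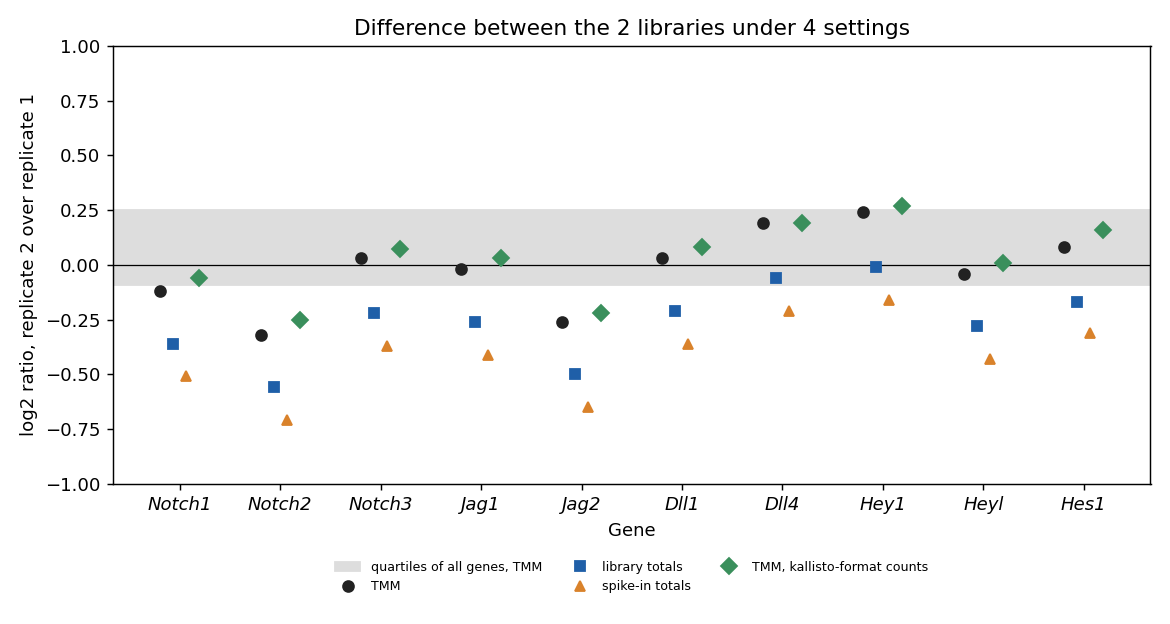
Log2 ratio of replicate 2 over replicate 1 (vertical axis) for each gene under TMM scaling, library totals and spike-in totals of expected counts and under TMM scaling of kallisto-format counts. The grey band spans the quartiles of 11759 genes with TMM, -0.09 to 0.25. Notch2 and Jag2 are lowest and Hey1 and Dll4 highest whichever symbol is followed, and every square and triangle is below 0.

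The 10 genes have 47 annotated transcripts, 14 of them classed as coding, 16 as retained intron and 17 as processed transcripts, which have no annotated reading frame. In every gene 1 coding form, the same throughout, held the most TPM in both libraries, by the RSEM-format and the kallisto-format tables. The same coding form led in both libraries in 82.9% of detected protein coding genes with several transcripts. The share of this leading form in RSEM-format TPM was highest for Dll4, at 100% in replicate 1 and 97.3% in replicate 2, and for Notch3, at 98.5% and 96.9%. It was lowest for Jag2, at 58.3% and 59.0%. In the other 7 genes its mean ran from 79.0% in Dll1 to 94.2% in Jag1.

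Jag2 shows how short forms weigh in TPM. Its leading coding transcript, of 5106 nucleotides, took 92.6% of the gene's expected counts in replicate 1 and 92.1% in replicate 2. Jag2-204, a retained intron form of 406 nucleotides, took 18.8 counts in replicate 1, and these made 12.2% of the gene's TPM. In replicate 2 it took 2.1 counts and 1.77%, and by kallisto-format TPM it was at 0 in both libraries. A processed transcript of 750 nucleotides held 7.35% of the gene's TPM in replicate 1 and 15.1% in replicate 2. By kallisto-format TPM its share was 18.5% and 24.7%. The other coding transcript, of 742 nucleotides, held 4.7% and 12.6%, and by kallisto-format TPM 6.78% and 10.1%. By the leading form alone Jag2 stood at a TPM of 10.3 and 7.10, below that of Notch1, at 12.4 and 9.65, and that of Heyl, at 10.7 and 8.58. It stayed above the leading forms of the other ligands, which were 6.74 and 5.59 for Jag1, 5.71 and 5.34 for Dll4, and 4.90 and 4.22 for Dll1. By RSEM-format TPM the third place of Jag2 among the 10 genes therefore rests on its other, shorter forms, while its lead among the ligands does not. By leading forms Dll4 was above Dll1 in both libraries.

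Retained intron forms held a smaller share of TPM in replicate 2 in all 8 genes that have them. The same direction was seen in 81.2% of 6659 genes with such a form and enough counts (a mean of 100 or more), so the direction was common to most genes of the tissue. In Notch1 the share was 8.83% in replicate 1 and 3.93% in replicate 2, from 149 and 55.5 expected counts. In Jag2 it was 26.0% and 8.65%, from 68.5 and 18.4 counts over 5 transcripts. In Jag1 it was 8.80% and 2.78%. The median over the 8 genes was 15.9% in replicate 1 and 8.41% in replicate 2, beside 10.3% and 5.77% over all genes with such forms. By kallisto-format TPM the medians were 10.9% and 4.29%, beside 11.1% and 6.77%. These last medians do not cover like sets, since the 8 include Hes1 and Notch3, at 0% in both libraries. Among all genes those at 0% in both libraries were left out. By expected counts the medians were 4.35% and 1.92%, beside 5.25% and 2.9%. Whether the 8 genes stood above all genes thus depends on the measure.

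The other 5 genes with such forms differed in size. Dll1 went from 18.3% to 8.64%, Hes1 from 15.1% to 8.19% and Hey1 from 16.8% to 10.3%. Hes1 rested on 14.3 and 7.24 counts, Hey1 on 17.5 and 12.2, Dll1 on 22.4 and 9.65 and Jag1 on 24.8 and 7.19, so the shares of all 4 are coarse. Notch2 kept the largest share in replicate 2, at 19.2% after 20.9%, all from Notch2-202, while the kallisto-format tables gave it 10.2% and 4.37%. In Notch3 the share was 1.46% and 0%. By kallisto-format TPM 6 of 8 genes were lower in replicate 2, with Hes1 and Notch3 at 0% in both libraries. By that measure the share was lower in 77.8% of 6535 genes with such a form above 0 and enough counts. Hes1 and Notch3 fall outside that set, and the 6 genes inside it were all lower. Dll4 and Heyl have no retained intron form, and in Heyl the rest of the TPM was in 2 processed transcripts.

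**Figure D3:**
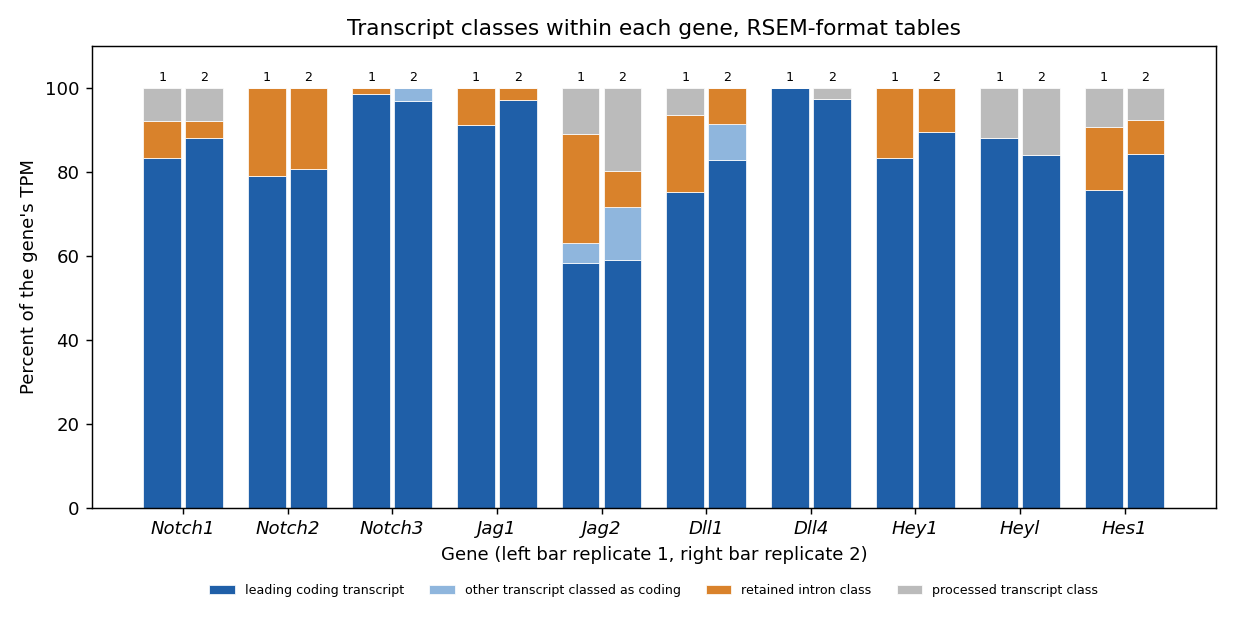
Percent of each gene's TPM (vertical axis) in the leading coding transcript, other coding transcripts, retained intron transcripts and processed transcripts, in the RSEM-format tables, with replicate 1 as the left bar and replicate 2 as the right bar of each gene. The retained intron part is smaller in the right bar for all 8 genes that have one, and Jag2 has the smallest leading part, at 58.3% and 59.0%.

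The binding motif of RBPJ, searched only as the exact sequence TGGGAA or its reverse complement TTCCCA, was looked for in RefSeq promoter windows of 300 bases in GRCm38.p6. The windows held 250 bases before and 50 after each start. Other forms of the motif were not searched. Of the 10 genes 7 were matched, with 8 windows, namely the receptors and ligands; Hey1, Heyl and Hes1 were not. The motif was in 0 of the 8 windows and in 25.6% of all 32851 windows. Other pathway genes searched were Hes5, Hes6, Hey2 and Nrarp. Hes5 and Hey2 each held the motif 1 time in each orientation, while Hes6 and Nrarp held none. Both orientations were in 1.81% of all windows.

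The rest of the pathway was read from a list of 61 further genes, of which 49 were detected, beside 52.3% of all nuclear protein coding genes. Notch4, the receptor known from endothelium, stood at a TPM of 9.82 in replicate 1 and 7.97 in replicate 2, below the other 3 receptors in both libraries. Of 4 other ligands only Dlk1 was detected. Dlk1, an imprinted Delta-like protein without the receptor-binding domain of the classical ligands, stood at 458 and 317, far above the 4 classical ones, with a log2 ratio over Notch3 of 4.28 ± 0.21 (SD, n = 2). Dner at 0.820 and 0.890, Dlk2 at 0.350 and 0.200, and Dll3 at 0 and 0.0100 were under TPM 1.

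Of 6 other HES and HEY genes only Hes6, known from differentiating myoblasts, was detected, at a TPM of 8.79 in replicate 1 and 8.99 in replicate 2, with Hes1 over Hes6 at 0.31 and -0.01 on the log2 scale. Hey2 stood at 0.690 and 0.450, so that Hey1 over Hey2 was 3.16 ± 0.36 on the log2 scale. Hes5 had 3 counts and 1 count, and Hes7 had 1 in each library. Hes2 and Hes3 were at 0 counts in both, and 3 counts, the limit a 0 allows, are 0.0841 CPM (counts scaled to the library size) in replicate 1 and 0.0757 in replicate 2, for counting error only. Heyl, Hes1, Hes6 and Hey1 were thus the members of the 2 families above TPM 1.

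The machinery that makes, cuts and reads the receptors was detected nearly throughout. In the nuclear complex 9 of 10 genes were detected, led by Snw1 at TPM 23.4 ± 0.417 and the acetyltransferase gene Crebbp at 19.5 ± 2.17, with SD over n = 2, and Rbpj itself was at 20.1 and 14.98. By mean kallisto-format TPM the order was Crebbp at 36.5, Rbpj at 34.9 and Snw1 at 32.3. Rbpjl, a relative of Rbpj, was at 0.0200 and 0.0100. All 11 corepressors were detected, led by Aes, the annotation's symbol for Tle5, at 294 ± 30.9 and Ctbp1 at 96.8 ± 7.64. Of 7 gamma-secretase genes 6 were detected, led by Psenen at 44.3 ± 3.99 and Aph1a at 29.0 ± 4.09, while Aph1c was at 0.760 and 0.140; its reads can be shared with its close copy Aph1b, so its value is uncertain.

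All 3 cleavage proteases were detected, led by Furin, which cuts the receptor before it reaches the membrane, at TPM 28.8 ± 1.23, and Adam10, which cuts it after ligand binding, at 20.1 ± 2.66 (SD, n = 2). By mean kallisto-format TPM Adam10, at 37.1, was slightly above Furin, at 36.9. All 5 glycosyltransferases were detected, led by Pofut1, which adds fucose to the receptor, at 11.7 ± 1.82 and Poglut1 at 4.79 ± 0.827. All 4 ubiquitin ligases of the ligands were detected, with Neurl1a at 23.7 ± 2.35 and Mib1 at 18.5 ± 0.792. Of 10 genes of receptor turnover and inhibition 8 were detected, led by Fbxw7 at 21.9 ± 0.905 and Dtx3 at 13.6 ± 4.33, with Dtx1 at 0.550 and 0.330 and Bend6 at 0.550 and 0.200. Among the 49 list genes whose mean count reached 100, 21 were lower and 28 higher in replicate 2 with TMM, at a median log2 ratio of 0.02, and 1, the corepressor gene Tle2, passed 2-fold, at -1.02.

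**Figure D4:**
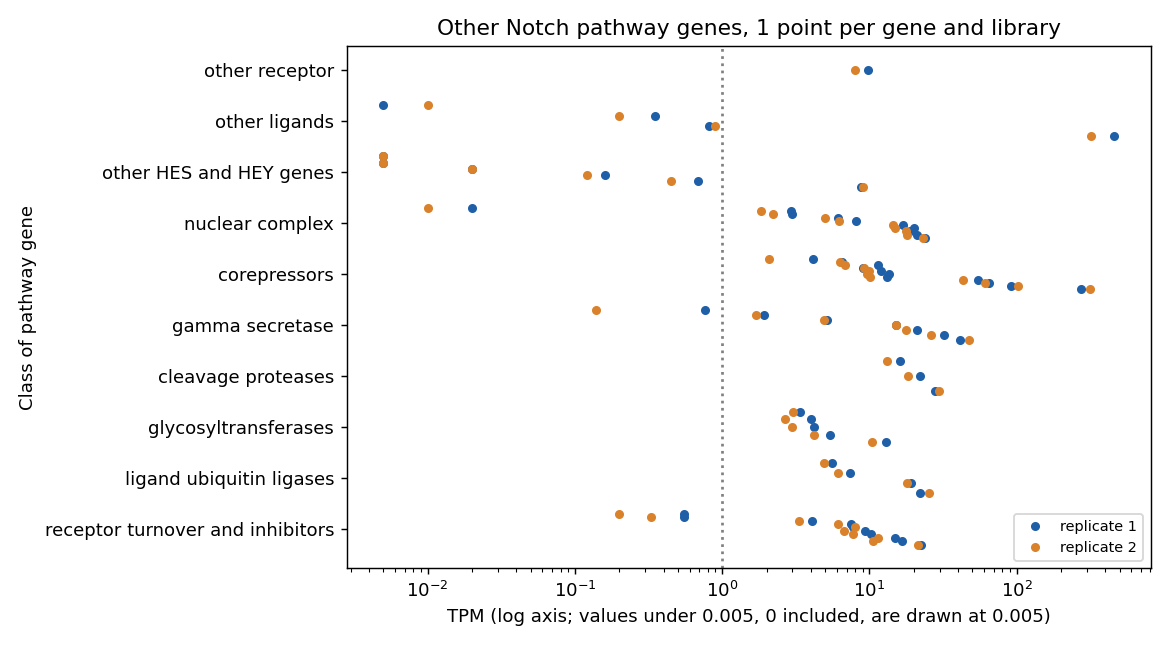
TPM (horizontal log axis) of 61 other pathway genes by class, with 1 point per gene for each replicate and a dotted line at TPM 1. Other ligands and other HES and HEY genes hold 8 of the 12 genes left of the line in at least 1 library, while all corepressors, cleavage proteases, glycosyltransferases and ligand ubiquitin ligases lie to its right.

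Markers of cells in which the pathway is known to act were present in both libraries. All 8 endothelial markers were detected, with a summed TPM of 266 in replicate 1 and 217 in replicate 2 and Cdh5 at 74.2 and 66.2. Of 6 arterial markers 5 were, at 31.8 and 26.8, with Efnb2 at 7.47 and 6.70, and Bmx under TPM 1. All 9 pericyte and smooth muscle markers were, at 466 and 534, with the actin gene Acta2 at 229 and 314 and Pdgfrb at 20.9 and 17.5, so the higher sum in replicate 2 came from Acta2. All 8 satellite cell markers were, at 108 and 94.7, with Pax7 at 5.0 and 3.87. With TMM the median log2 ratio of these 4 lists was 0.06, -0.03, 0.19 and 0.02. Which cells held the transcripts of the 10 genes was not analysed here.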

How the data were processed

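Total RNA-seq of 2 libraries was analysed. Build mm10 and annotation GENCODE M21 were used by the authors, per the metadata text deposited with the tables. For the programs behind the tables no source used here gives a name, so they are described by column layout as RSEM-format or kallisto-format. The deposited tables give expected counts (estimated counts in the kallisto-format tables), TPM and posterior mean TPM scaled to a fixed sum over all rows, spike-ins included, and the percent of a gene's abundance in each transcript, per the file headers. Rows without a gene name held 1.38e-05% and 5.00e-06% of counts and were left out; spike-ins held 0.720% and 0.798%.

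The members, lists and measures were chosen with earlier results of these data known. Named are all 10 members and, per class of the pathway list, the 2 highest by mean TPM and those under TPM 1 in both libraries. Rbpj, Tle2 and the markers named singly were chosen after their values were seen. Nrarp is named only as a gene of the motif search. Aes was used for Tle5. Kallisto-format values were summed per gene. Expected counts were rounded, and ratios are log2 CPM with a prior count of 0.5, with TMM (edgeR 4.0.16, R 4.3.3); DESeq2 1.42.0 size factors were 1 alternative, with scaling to library or spike-in totals as further alternatives. The ratio script was tested on simulated data with known changes. Other values were computed in Python 3.11.15 (pandas 2.3.3, numpy 2.4.6) and drawn with matplotlib 3.10.9. Precision is limited by 2 libraries and by the counts printed.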

Additional observations from a re-analysis of the deposited data

How the results depend on the processing

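No paired analysis was possible because the series has 1 group, so there is no replicate block to fit. The summed TPM of the 10 genes was 107, against 145 by kallisto-format TPM and 233 over nuclear protein coding genes, and ranged from 93.4 to 120 when 1 replicate was left out. The number of detected members was 10 in every setting. Heyl held 42.8% of effector TPM, 42.5% by posterior mean TPM and by kallisto-format TPM, and 66.2% of expected counts, which are not per length. Jag2 held 39.5% of ligand expected counts. Leaving out 1 replicate gave 38.8% to 44.0% for Notch3, 42.4% to 47.5% for Jag2 and 42.7% to 43.0% for Heyl. Rbpj over Notch1 turned to -0.57 as a ratio of expected counts.

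The median log2 ratio of the 10 genes between libraries, 0.01 with TMM, was -0.01 with DESeq2 size factors, -0.24 with library totals, -0.39 with spike-in totals and 0.05 with kallisto-format counts. With library totals and spike-in totals Notch3 turned to -0.22 and -0.37, Dll1 to -0.21 and -0.36, Dll4 to -0.06 and -0.21, Hey1 to -0.01 and -0.16, and Hes1 to -0.17 and -0.31. These scalings lower every gene by the same amount. With kallisto-format counts Jag1 turned to 0.03 and Heyl to 0.01. The median over the 11759 genes was 0.13 with these counts, against 0.08 with TMM of expected counts. The cause was not tested. The number of members lower in replicate 2, 10 by TPM, was 5 with TMM and 5 with DESeq2 size factors. The share of all genes 2-fold lower in replicate 2 was 6.38% at a mean count of at least 10, 9.79% with no filter, 1.46% with library totals and 2.32% with spike-in totals, and 2.57% passed 1.5-fold. On the high side these were 0.751%, 3.63%, 0.111% with spike-in totals and 0.595% with kallisto-format counts, and 1.88% passed 1.5-fold. Retained intron shares, counts of members lower in replicate 2, intervals that were apart and levels of the leading transcript were added after seeing the data, with their alternatives. Depth limits the retained intron forms: those of Notch3, Hes1 and Hey1 had 17.5 counts or fewer per library.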
